A study of Mus musculus with 10 samples.

Results

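The 46 windows described here hold the replication-dependent histone genes of the mouse in the H3K4me3 data of *Setd1b* cKO and WT GV oocytes. They are all the 5 kb windows on chromosomes 1 to 19 that the deposited table names after a gene beginning with Hist1h, Hist2h, Hist3h or Hist4h, out of 544879 windows in the table. The table gives each window 1 gene name, so the 46 windows carry the names of 35 genes. Of these windows, 41 carry Hist1 names on chromosome 13, 3 lie in Hist2 on chromosome 3, 1 in Hist3 on chromosome 11 and 1 in Hist4 on chromosome 6. Among the 41, Hist1h2al lies far from the Hist1 cluster. By the name of the window, 6 are of type H1, 6 of H2A, 19 of H2B, 6 of H3 and 9 of H4. In the GENCODE M21 annotation (GRCm38), the clusters hold 70 histone genes, of which 67 are protein-coding, and 57 of the 70 gene starts fall in these 46 windows. The other 13 starts fall in 8 windows that the table names after neighbouring genes. Where the table gives several windows to 1 gene, they are numbered here along the chromosome (Hist1h2be window 1 to window 8).

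H3K4me3 was profiled by ULI-nChIP-seq, a chromatin immunoprecipitation of micrococcal nuclease-digested native chromatin from few cells, in GV oocytes of 21-day-old females labelled C57BL6, a background that the study's methods name C57BL/6OlaHsd. Both genotypes were labelled *Setd1b* floxed/floxed. *Setd1b* cKO females were Gdf9-Cre positive, so that SETD1B, an H3K4 methyltransferase, was removed in oocytes by a Cre driven from an oocyte gene, and WT females were Gdf9-Cre negative. The study's methods also count Cre-positive heterozygous females as WT, which the labels do not separate. About 200 oocytes were pooled for each replicate, with 3 replicates for each genotype (cKO replicates 1, 3 and 4, WT replicates 1, 2 and 4) and 2 input libraries for each genotype.

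Replication-dependent histone genes supply the bulk histones that package newly copied DNA. Most have no introns, lie in clusters, and end their messenger RNA in a conserved stem-loop that binds SLBP in place of a poly(A) tail. H1 is the linker histone, and H2A, H2B, H3 and H4 form the core of the nucleosome. H3K4me3 marks the starts of active genes in somatic cells, and in growing oocytes it also spreads into broad domains away from gene starts. Oocytes do not replicate their DNA while they grow, but they store histones for the embryo.

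The 3′ stem-loop is the sequence that defines this class of genes, so it was searched for first. A GG-led stem of 6 bases, a loop of 4 bases beginning with TT and the exact complement of the stem were found within 150 bases after the stop codon in 63 of the 67 coding cluster genes. The same search found it in 1 of 13 coding replacement histone genes outside the clusters, H2afx. The stem-loop occurred in 6 of 6 H1 genes, 17 of 18 H2A genes, 17 of 18 H2B genes, 11 of 12 H3 genes and 12 of 13 H4 genes. Hist1h2an, Hist1h3g, Hist1h4a and Hist2h2be had no exact match in that stretch. The commonest version was shared by 41 genes, among them Hist1h1e, and Hist4h4 had a version shared by 8 genes. Both are printed 5′ to 3′ from the GRCm38 sequence with 5 bases on each side, and the capitals mark the stem-loop.
Hist1h1e (chr13:23621777-23621802, minus strand): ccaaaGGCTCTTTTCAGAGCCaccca
Hist4h4 (chr6:136803993-136804018, minus strand): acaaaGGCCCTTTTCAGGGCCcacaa

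The promoters of the H1 genes are shown because the window with the clearest difference between the genotypes holds the start of an H1 gene. RefSeq (GRCm38.p6) gave a promoter of 300 bases, from 250 before to 50 after the start, for 62 of the 70 cluster genes. The 140 bases before the start are printed 5′ to 3′ on the coding strand. The capitals mark TATAAA (the core promoter box bound by TBP), CCAAT (a box bound by NF-Y) and AAACACA (known as the H1 box), each on either strand.
Hist1h1a (chr13:23763528-23763667, plus strand): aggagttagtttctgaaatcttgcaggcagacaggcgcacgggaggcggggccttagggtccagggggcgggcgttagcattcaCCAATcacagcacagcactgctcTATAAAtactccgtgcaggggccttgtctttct
Hist1h1b (chr13:21780626-21780765, minus strand): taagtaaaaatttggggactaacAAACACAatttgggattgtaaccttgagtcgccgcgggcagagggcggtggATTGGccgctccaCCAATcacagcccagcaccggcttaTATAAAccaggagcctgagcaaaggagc
Hist1h1c (chr13:23738667-23738806, plus strand): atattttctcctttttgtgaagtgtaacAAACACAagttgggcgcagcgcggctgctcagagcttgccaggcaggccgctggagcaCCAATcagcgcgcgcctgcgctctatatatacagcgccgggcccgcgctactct
Hist1h1d (chr13:23554892-23555031, plus strand): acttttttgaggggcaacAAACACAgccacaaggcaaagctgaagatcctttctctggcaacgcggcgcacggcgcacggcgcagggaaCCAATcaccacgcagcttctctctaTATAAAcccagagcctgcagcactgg
Hist1h1e (chr13:23622559-23622698, minus strand): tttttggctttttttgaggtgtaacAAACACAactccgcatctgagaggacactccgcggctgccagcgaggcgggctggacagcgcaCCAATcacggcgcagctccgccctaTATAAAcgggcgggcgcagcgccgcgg
Hist1h1t (chr13:23695671-23695810, plus strand): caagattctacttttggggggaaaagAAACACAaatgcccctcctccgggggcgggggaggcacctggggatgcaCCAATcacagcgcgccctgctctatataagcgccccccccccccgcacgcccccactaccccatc

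In the 300-base promoters AAACACA was found in 5 of 6 H1 genes, all but Hist1h1a, against 14.5% of all 62 cluster promoters and 7.18% of the 32851 promoters in the RefSeq table. Within the 150 bases before the start and on the coding strand, it began 112 to 122 bases before the start in those 5 genes. CCAAT began 51 to 65 bases before the start in all 6 H1 genes, and TATAAA 26 to 33 bases before it in 4 of them. CCAAT was found in 100% of the 18 H2A, 16 H2B and 10 H3 promoters and in 3 of the 12 H4 promoters, against 37.4% of all RefSeq promoters. ATTTGCAT, the octamer bound by POU2F1, was found in 7 H2A and 6 H2B promoters and in no H1, H3 or H4 promoter, against 1.74% of all RefSeq promoters. TTTCGCGC, an E2F motif, was found in 5 H2A and 4 H2B promoters only, against 0.323% of all. Several H2A and H2B genes are divergent pairs whose promoter stretches overlap, so a match can count for both genes. Such pairs with TTTCGCGC were Hist1h2an and Hist1h2bp, Hist1h2ah and Hist1h2bk, Hist1h2ag and Hist1h2bj, and Hist1h2ad and Hist1h2bf. Those with ATTTGCAT were Hist1h2ah and Hist1h2bk, Hist1h2ae and Hist1h2bg, and Hist1h2aa and Hist1h2ba. GCGGGA was found in 19.4% of the cluster promoters and in 19.98% of all promoters. TATAAA was found in 56.5% of the cluster promoters and in 13.6% of all. Each motif was searched on both strands, and matches of different motifs overlapped in 0 places in the cluster promoters. Hist4h4 held none of the 6 motifs in its promoter, and the 140 bases before its start are printed for comparison with the H1 promoters.
Hist4h4 (chr6:136804432-136804571, minus strand): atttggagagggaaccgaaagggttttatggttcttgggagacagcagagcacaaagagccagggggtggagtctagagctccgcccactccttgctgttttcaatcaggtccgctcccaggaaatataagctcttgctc

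Depth and enrichment differed between the libraries. The H3K4me3 libraries held from 10856015 (WT replicate 2) to 32775874 (WT replicate 4) reads in windows, and the input libraries from 20756128 to 26566505. Values are normalized RPKM, reads scaled to window length and library size that the authors rescaled so that enrichment matched between libraries, and 1 read was worth from 0.0300 to 0.132 of a unit. The scale is linear and its value at 0 reads differed between libraries, from -1.02 (cKO replicate 3) to 0.810 (WT replicate 1). H3K4me3 at the window with the start of Setd1b, a label check that does not read the deletion itself, fell from 7.11 ± 0.86 to 4.36 ± 0.38 (SD, n = 3 each, limma adjusted p = 0.033). At the start windows of 10 oocyte genes (Zp1, Zp2, Zp3, Gdf9, Bmp15 and others), all WT means were above 3, and the summed level was 61.1 to 67.7 in WT and 53.0 to 55.7 in cKO libraries, with 8 of 10 means lower in cKO. Gdf9, whose promoter drives the Cre, was not among the 8, at mean levels of 7.46 in WT and 10.70 in cKO, and its groups did not overlap. At those of 11 ovarian somatic genes (Amh, Fshr, Foxl2 and others), of which 6 had a WT mean above 3 and none was at 0, the sum was 33.5 to 34.2 in WT and 42.02 to 42.30 in cKO libraries, with 9 of 11 means higher in cKO and Foxl2 called as a gain. Over all windows, 43.7% of means were higher in cKO and 0.563% were called as gains. The part of the shifts at these marker genes in the histone values was not tested.

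The histone clusters were enriched in H3K4me3 in both genotypes and changed little as a whole. The median WT mean of the 46 windows was 4.30 normalized RPKM, against 1.46 for all windows, 3.72 for the 20269 windows with a protein-coding start and 3.10 for 36 other windows inside the clusters. The median cKO mean was 4.62, against 1.54 for all windows. Averaged over the 46 windows, the level was 4.65, 4.17 and 4.44 in WT replicates 1, 2 and 4, and 4.67, 3.90 and 4.49 in cKO replicates 1, 3 and 4. The libraries of the genotypes overlapped, with cKO replicate 3 the lowest. The mean was higher in cKO at 23 windows and lower at 23. The lower ones include all 4 windows with an input under 1, of which 2 had 0 reads in every library, and without these 4 the counts were 23 and 19. This split moved with the scaling. On RPM, reads scaled to library size only, 17 of the 44 windows with reads in both genotypes had the higher mean in cKO, with a median log2 ratio of -0.12, while the median over all windows was 0.14. With the TMM scaling of edgeR, 14 of 44 windows were higher. In the plot of all 46 windows by library, the points of the genotypes are mixed at most windows.

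**Figure D1:**
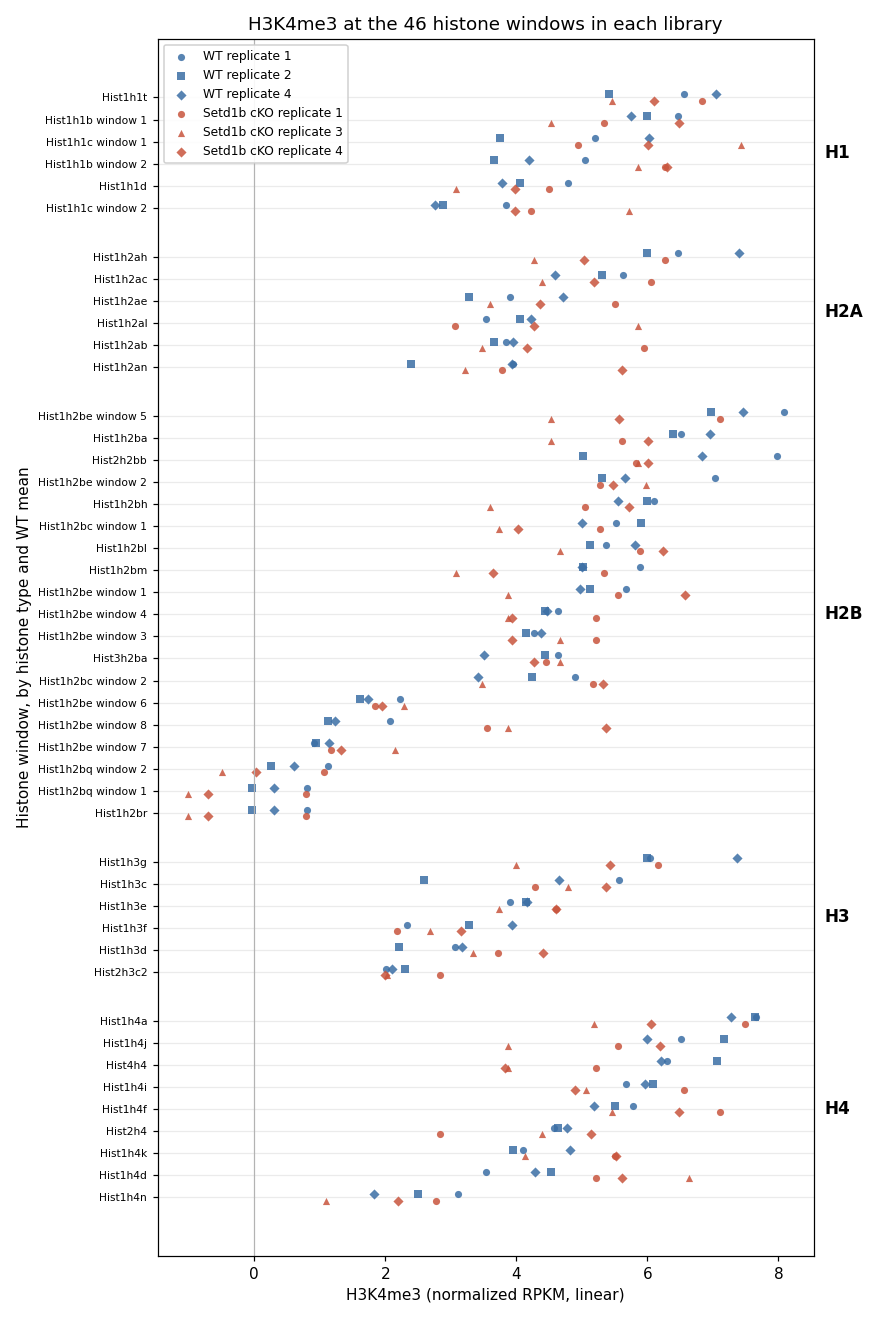
Each row is 1 of the 46 histone windows and each point 1 library, with normalized RPKM on the linear horizontal axis, WT in blue and *Setd1b* cKO in red, and rows grouped by histone type and ordered by WT mean. At 6 windows all 3 cKO points lie above all WT points, most clearly at Hist1h2be window 8, and at 2 (Hist4h4 and Hist1h2ba) all lie below.

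Of the 46 windows, 1 passed the test. Hist1h2be window 8 gained H3K4me3 in cKO, 0 of the 46 windows lost it, and over all windows 0.563% were called as gains and 0.454% as losses (limma, adjusted p under 0.05). At an unadjusted p under 0.05, 5 histone windows were higher and 8 lower in cKO, against 6.82% and 8.12% of all windows. Without cKO replicate 3 they were 8 and 2 (33769 and 37956 over all windows). They were 6 and 12 (55690 and 115683 over all windows) without cKO replicate 1. On log2(value + 1) the counts were 3 and 1, against 31865 and 41367 of all 544879 windows. After quantile normalization they were 3 and 2, against 41782 and 48989. With edgeR they were 1 and 0, against 34854 and 31472 of 503726 windows. All cKO libraries were above all WT libraries at 6 histone windows and below at 2, against 9.88% and 9.95% of all windows. On RPM the groups did not overlap at 2 windows with cKO above (Hist1h2be window 8 and Hist1h4d) and at 1 with cKO below (Hist2h4). Over all 544879 windows, these RPM counts were 38565 above and 42972 below.

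Hist1h2be window 8 (chr13:23620001-23625000, GRCm38) holds the whole of Hist1h1e, which encodes the linker histone H1.4, and the distal start of Hist1h2be. Hist1h1e is transcribed from chr13:23622558 toward lower coordinates on the minus strand, so the promoter printed above lies inside the window. Its H3K4me3 was 2.07, 1.13 and 1.23 in WT replicates 1, 2 and 4, and 3.56, 3.87 and 5.38 in cKO replicates 1, 3 and 4. All 3 cKO values lay above all 3 WT values. The mean rose from 1.48 ± 0.51 to 4.27 ± 0.97 (SD, n = 3 each), a difference of 2.79 ± 0.51 (SE, limma adjusted p = 0.039). Behind these values were 24, 12 and 31 reads in WT and 50, 37 and 126 reads in cKO. The input of the window was 2.02, close to the median of 2.07 over all windows. The WT level lay at the 50.5th percentile of all windows, so the start of Hist1h1e was not set apart from the genome in WT oocytes, while the window has 129 CpGs and falls in the CpG decile with the most CpGs of all windows. edgeR on the recovered reads also called the gain (log2 fold change 1.53, adjusted p = 0.0030). Limma on log2(value + 1) and after quantile normalization did not (adjusted p = 0.11 and 0.16). The call was lost when any library other than cKO replicate 1 was left out, with a highest adjusted p of 0.14, and the difference then ranged from 2.24 to 3.09.

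The other linker histone genes did not pass the test. Of the 6 windows with an annotated H1 start, 4 had the higher mean in cKO, 4 also on RPM but 3 with the TMM scaling of edgeR, and in 2 of them (Hist1h2be window 8 and Hist1h1b window 2) all cKO libraries were above all WT libraries, against 9.88% of all windows. Hist1h1b window 2 (chr13:21780001-21785000), with the starts of Hist1h1b (linker histone H1.5) and Hist1h3i, was at 5.05, 3.66 and 4.20 in WT and at 6.28, 5.85 and 6.29 in cKO, in replicate order. The groups did not overlap, and the difference was 1.84 ± 0.41 (SE, limma adjusted p = 0.069). On RPM its groups overlapped. Hist1h1c window 1, with the start of the gene for linker histone H1.2, was at 5.20, 3.76 and 6.02 in WT and 4.94, 7.43 and 6.003 in cKO. These values overlapped, with cKO replicate 3 the highest (difference 1.13 ± 0.69, adjusted p = 0.49, with a direction that turned in edgeR to -0.05 on the log2 scale). The difference was 0.48 without cKO replicate 3, 0.51 without WT replicate 2 and 1.72 without cKO replicate 1. The window that follows it, Hist1h1c window 2, holds no annotated histone start and was at 3.84, 2.88 and 2.76 in WT and 4.22, 5.72 and 3.98 in cKO, a difference of 1.48 ± 0.51 without overlap (adjusted p = 0.20), and of 0.94 without cKO replicate 3. Hist1h1d (H1.3) starts in the window named Hist1h4f in GENCODE, and its RefSeq start at chr13:23555032 lies just past the end of that window. The Hist1h4f window differed by 0.86 (0.48 to 1.30 with a library left out). The next, named Hist1h1d, differed by -0.35 (-0.68 to 0.03). The count of 4 higher means above thus rests on the GENCODE start of Hist1h1d.

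The windows with the starts of Hist1h1t and Hist1h1a had lower means in cKO. Hist1h1t encodes the testis linker histone, and its window was the highest of the H1 type in WT, at 6.56, 5.41 and 7.04, and 6.83, 5.45 and 6.10 in cKO. The genotypes overlapped, and the difference of -0.21 ± 0.50 (adjusted p = 0.85) turned to 0.12 without cKO replicate 3 and to 0.14 without WT replicate 4. Hist1h1a starts in the window named Hist1h4a, whose mean was 1.29 lower in cKO. Hist1h1b window 1, which holds no annotated start, differed by -0.62 (-1.14 to -0.16 with a library left out). Over the 6 windows named after H1 genes, the mean per library was 5.32, 4.29 and 4.93 in WT and 5.35, 5.34 and 5.47 in cKO, so the cKO libraries lay just above the highest WT library. Of these 6 windows, 3 were higher in cKO in normalized RPKM and on RPM, and 2 with the TMM scaling.

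**Figure D2:**
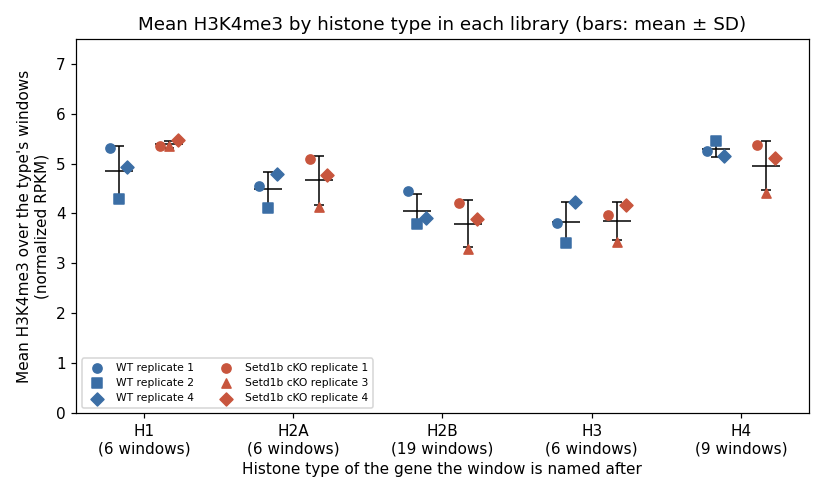
Points give, for each library, the mean normalized RPKM over the windows named after each histone type, with WT in blue, *Setd1b* cKO in red, and black bars for the mean ± SD over the 3 libraries. Only for H1 do all 3 cKO points lie above all 3 WT points, and cKO replicate 3 is the lowest cKO point for every type.

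The H2A windows, which hold genes of the core histone that faces H2B in the nucleosome, differed by -1.43 to 0.78, with 5 of 6 means higher in cKO (3 of 6 on RPM and with the TMM scaling) and 0 called. The exception, Hist1h2ah, was the highest H2A window in WT. It was at 6.46, 5.996 and 7.40 in WT and at 6.28, 4.27 and 5.04 in cKO, so that WT replicate 2 lay under cKO replicate 1 (difference -1.43 ± 0.55, adjusted p = 0.25). Hist1h2al, which lies apart from the cluster at chr13:51200001-51205000 and is annotated as a pseudogene, was at 3.53 to 4.23 in WT and 3.06 to 5.85 in cKO. The H2A mean per library was 4.55, 4.12 and 4.80 in WT and 5.10, 4.13 and 4.77 in cKO, so the genotypes overlapped, with cKO replicate 1 above the WT range.

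Of the 19 H2B windows, 8 are named after Hist1h2be, whose annotated span runs from chr13:23583670 to 23621124. Along that span the WT mean was 5.26 at window 1 and 6.01 at window 2, 4.26 and 4.51 at windows 3 and 4, and 7.50 at window 5. It was 1.86, 1.00 and 1.48 at windows 6, 7 and 8. Window 5 (chr13:23605001-23610000) was the second highest of the 46 windows in WT although it holds no gene start in GENCODE M21, no exon of Hist1h2be and only 34 CpGs. It was at 8.08, 6.97 and 7.46 in WT and 7.11, 4.53 and 5.57 in cKO. Only cKO replicate 1 reached the WT range (difference -1.77 ± 0.60, adjusted p = 0.19). Window 7, next to window 8, was at 0.915, 0.937 and 1.14 in WT and 1.17, 2.15 and 1.33 in cKO. It had the lowest WT mean outside the windows that lacked input, and the groups did not overlap (difference 0.55 ± 0.37, adjusted p = 0.49, and 0.25 without cKO replicate 3). Its values rested on 2, 10 and 28 reads in WT and 7, 24 and 42 in cKO, and on RPM the groups overlapped. Within 1 gene name the mean thus differed by -1.77 at window 5 and by 2.79 at window 8.

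**Figure D3:**
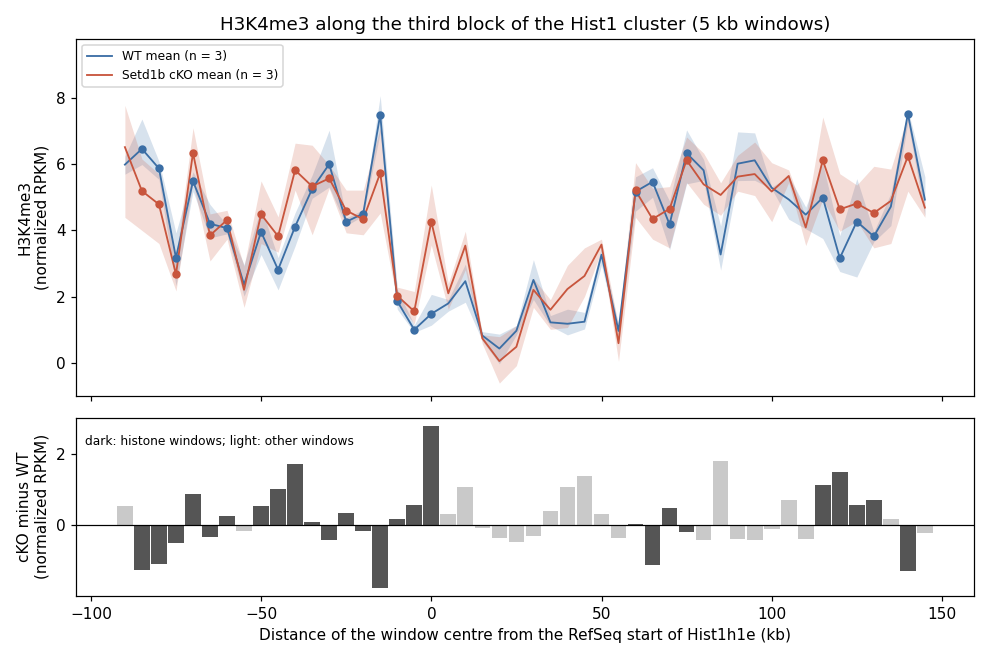
The upper panel plots mean normalized RPKM of WT (blue) and *Setd1b* cKO (red) for 48 consecutive 5 kb windows of chromosome 13 against the distance of the window centre from the RefSeq start of Hist1h1e in kb, with shading from the lowest to the highest of the 3 libraries and dots on the 26 histone windows. The lower panel gives cKO minus WT in the same unit, with dark bars for histone windows. The window at 0 stands in a low stretch in WT and has the largest positive bar, 2.79, and the window 15 kb to its left has the largest negative bar, -1.77.

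Outside Hist1h2be, the H2B windows overlapped between genotypes, except Hist1h2ba. Hist2h2bb (chr3:96275001-96280000) was at 7.98, 5.02 and 6.83 in WT and 5.83, 5.85 and 6.003 in cKO, with the widest WT spread of the H2B windows (difference -0.72 ± 0.63, adjusted p = 0.56). The difference was -0.03 without WT replicate 1 and -1.51 without WT replicate 2. GENCODE M21 places the start of Hist2h2bb in chr3:96265001-96270000, a window that the table names Gm20628 and that differed by -1.20 (adjusted p = 0.15). Hist1h2bm was at 5.88, 5.02 and 5.01 in WT and 5.33, 3.08 and 3.64 in cKO. Only cKO replicate 1 lay within the WT range (difference -1.29 ± 0.56, adjusted p = 0.32). Hist3h2ba, the histone window of the Hist3 cluster, was at 4.63, 4.44 and 3.51 in WT and 4.45, 4.66 and 4.27 in cKO (difference 0.27 ± 0.39, adjusted p = 0.74). Its direction turned to -0.08 without WT replicate 4 and to a log2 fold change of -0.13 in edgeR. Over all 19 H2B windows, 8 means were higher and 11 lower (6 and 11 on RPM, 4 and 13 with the TMM scaling, of 17), 8 and 8 without the 3 windows of low input, and the mean per library was 4.45, 3.79 and 3.91 in WT and 4.22, 3.28 and 3.89 in cKO.

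Hist1h2ba encodes TH2B, an H2B variant of the germline, and shares its window (chr13:23930001-23935000) with Hist1h2aa, the gene of the partner variant TH2A on the opposite strand. H3K4me3 there was 6.51, 6.39 and 6.95 in WT and 5.61, 4.53 and 6.003 in cKO. All cKO libraries were below all WT libraries, and the difference of -1.24 ± 0.43 did not pass the test (adjusted p = 0.21). On RPM the groups overlapped. With a WT mean of 6.62, this window ranked as the fourth highest of the 46.

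The H3 windows differed by -1.27 to 1.01, with 4 of 6 means higher in cKO (2 of 6 on RPM and with the TMM scaling) and 0 called. Hist1h3g was the highest in WT, at 6.04, 5.996 and 7.37, against 6.16, 4.00 and 5.42 in cKO. The groups overlapped at cKO replicate 1 (difference -1.27 ± 0.58, adjusted p = 0.34). Hist1h3d was lower in WT, at 3.06, 2.202 and 3.18, than in every cKO library, at 3.72, 3.34 and 4.41 (difference 1.01 ± 0.42, adjusted p = 0.29). Hist2h3c2 had the lowest WT mean of this type, 2.14 ± 0.15, and differed by 0.15, which turned to -0.13 without cKO replicate 1.

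H4, which pairs with H3 in the core, had the window with the highest WT level and the window with the most negative difference. Hist1h4a (chr13:23760001-23765000), which also holds the starts of Hist1h3a and Hist1h1a, had the highest WT mean of all 46 windows, at the 99.8th percentile of all windows. It was at 7.66, 7.65 and 7.28 in WT and 7.50, 5.19 and 6.05 in cKO. Only cKO replicate 1 lay within the WT range (difference -1.29 ± 0.53, adjusted p = 0.29). Hist1h4j was at 6.51, 7.16 and 5.99 in WT and 5.55, 3.87 and 6.20 in cKO, overlapping at cKO replicate 4 (difference -1.35 ± 0.58, adjusted p = 0.31). Hist1h4d was at 3.53, 4.54 and 4.29 in WT and at 5.22, 6.64 and 5.62 in cKO, with the higher mean in cKO. Its groups did not overlap in normalized RPKM or in RPM, and the difference of 1.71 ± 0.45 had an adjusted p of 0.11, while without cKO replicate 1 it was 2.01 and passed.

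Hist4h4 is the H4 gene of the Hist4 cluster on chromosome 6, away from the other clusters, and its window (chr6:136800001-136805000) had the most negative difference of the 46. It was at 6.30, 7.07 and 6.20 in WT and at 5.22, 3.87 and 3.83 in cKO. All cKO values lay below all WT values in normalized RPKM, while on RPM the groups overlapped. The mean was 6.52 ± 0.47 in WT and 4.31 ± 0.79 in cKO, a difference of -2.22 ± 0.46 (SE) with a limma adjusted p of 0.055. Without cKO replicate 1 the difference was -2.67 and passed (adjusted p = 0.021), while edgeR gave a log2 fold change of -0.74 (adjusted p = 0.59). Its start at chr6:136804415 stands near the upper end of the window. The next window holds the start of H2afj, a replacement H2A gene, and was at 7.87, 7.36 and 6.29 in WT and 5.499, 4.79 and 5.38 in cKO (difference -1.95 ± 0.45, adjusted p = 0.073). Over the 9 H4 windows, 3 means were higher and 6 lower in cKO, with the same counts on RPM and with the TMM scaling, and 3 and 5 without Hist1h4n, whose input was under 1.

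Windows high in WT had lower means in cKO. All 11 histone windows with a WT mean of at least 6 had a lower mean in cKO (median difference -1.27), against a higher mean in 20.9% of all 11830 windows of that range and in 28.4% of those in the highest CpG decile. Of the 20 histone windows with a WT mean from 4 to 6, 13 were higher in cKO (median 0.21), as were 7 of the 9 from 2 to 4 (median 0.53). Among all windows, 35.9% from 4 to 6 and 41.3% from 2 to 4 were higher, and in the highest CpG decile 59.6% and 74.8%. With the TMM scaling of edgeR, 0 of 11 windows of the highest range, 4 of 20 from 4 to 6 and 6 of 9 from 2 to 4 were higher, so the majority in the middle range turned. The WT values that set the ranges also enter the difference, so these are descriptions.

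**Figure D4:**
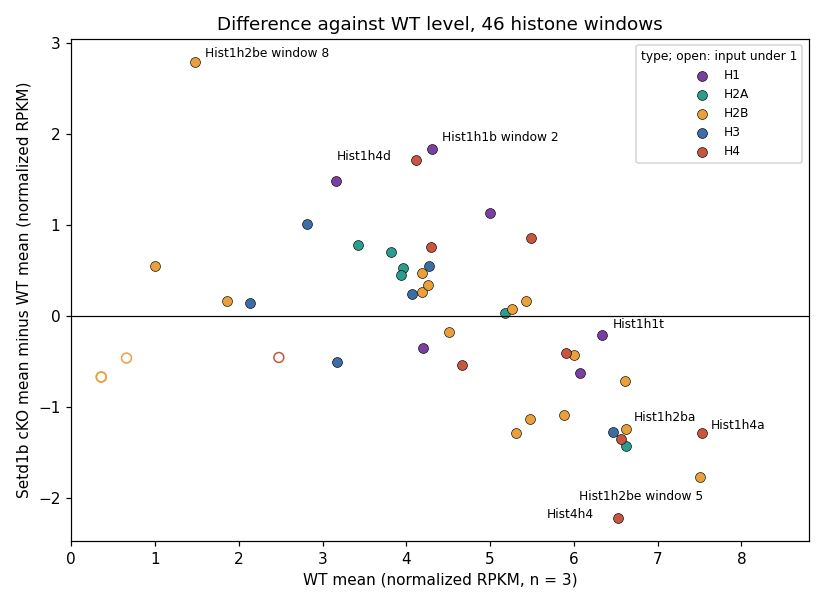
Each point is 1 of the 46 histone windows, with the WT mean on the horizontal axis and the *Setd1b* cKO mean minus the WT mean on the vertical axis, both in normalized RPKM and coloured by histone type, and open circles for the 4 windows with an input under 1. All 11 points at 6 or more on the horizontal axis lie under the line at 0, and Hist1h2be window 8, with the start of Hist1h1e, is the highest point at 2.79.

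The histone windows are rich in CpG dinucleotides, with a median of 113.5 per window against 34 for all windows, and 33 of the 46 fall in the highest CpG decile. In that decile, the mean difference over all windows was 0.26 with 61.8% of means higher in cKO. Over the 33 histone windows it was -0.08, with 17 of 33 higher, and over the 30 of them with an input of at least 1 it was -0.03, with 17 of 30 higher. Across the 42 histone windows with an input of at least 1, Spearman's rho between CpG count and the difference was 0.09, against 0.30 across all windows. These are correlations across windows that share libraries and clusters, not across replicates.

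Windows with and without an annotated histone gene start had close medians in WT, at mean levels of 4.65 and 4.00 (4.87 and 4.52 with an input of at least 1). Those without include Hist1h2bq window 1 and Hist1h2br, which had no reads, and the Hist1h1d window, which holds a RefSeq start. The WT median was 4.48 at the 30 windows with an annotated histone start and 4.23 at the 16 without, and the mean was higher in cKO at 17 of 30 and 6 of 16, or 17 of 28 and 6 of 14 with an input of at least 1. At the 8 windows with a histone start that the table names after another gene, the WT median was 4.96 and 4 of 8 means were higher in cKO, with 0 called. All cKO libraries were above all WT libraries at 0 of the 8 and below at 2, against 9.88% and 9.95% of all windows. By limma, 0 were higher and 2 lower at an unadjusted p under 0.05, against 6.82% and 8.12%. Histone gene starts per window and WT mean had a Spearman's rho of 0.15 across 42 windows.

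Replicates of WT resembled each other more than those of cKO at these windows. Across the 42 windows with an input of at least 1, Pearson's r between WT libraries was 0.861 to 0.892. Between cKO libraries it was 0.480 to 0.692. cKO replicate 1 had an r of 0.747 to 0.799 with the WT libraries and cKO replicate 3 one of 0.325 to 0.459. At Hist1h2be window 5, Hist1h4a and Hist1h2bm, cKO replicate 1 was the cKO library within the WT range. Without cKO replicate 1 the lower levels at these 3 windows passed the test. They were picked by the library that was then left out, so the pass carries no weight. At Hist1h2ah and Hist1h3g cKO replicate 1 was also the cKO library within the WT range, and these did not pass without it (limma adjusted p = 0.059 and 0.065). Leaving it out raised the calls over all windows from 3066 gains and 2473 losses to 9330 and 8649. Without cKO replicate 3 the difference was -1.17 at Hist1h2be window 5, -0.76 at Hist1h4a, -0.82 at Hist1h2bm, -0.68 at Hist1h4j and at Hist1h3g, and -0.81 at Hist1h2ba. These correlations describe windows of the same libraries and carry no test.

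In the first block of Hist1 (chr13:21715001-21840000), 4 windows had an input under 1 and were hardly or not measured. Hist1h2bq window 1 and Hist1h2br had 0 reads in all 6 H3K4me3 and all 4 input libraries. Each was listed at 0.810, -0.0359 and 0.300 in WT and 0.785, -1.02 and -0.700 in cKO, which are the libraries' values at 0 reads. Their listed difference of -0.67 rests on 0 reads. Hist1h2bq window 2, with the starts of Hist1h2bq, Hist1h2ao and Hist1h4m, had an input of 0.06 and was listed at 1.12, 0.256 and 0.599 in WT and 1.06, -0.488 and 0.0233 in cKO. Hist1h4n, with an input of 0.65, differed by -0.45. The cause of the low input was not tested. Without the 4 windows, the mean per library over 42 windows was 4.95, 4.51 and 4.80 in WT and 4.99, 4.31 and 4.89 in cKO.

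The 4 clusters are of very unequal size. The Hist1 mean per library was 4.59, 4.11 and 4.41 in WT and 4.73, 3.87 and 4.51 in cKO, a difference of -0.004, whose sign changed with the library left out, from -0.18 without cKO replicate 1 to 0.25 without cKO replicate 3. The Hist2 mean over 3 windows was 4.86, 3.99 and 4.57 in WT and 3.84, 4.09 and 4.38 in cKO, a difference of -0.37 with overlap, which was -0.17 without WT replicate 1, -0.61 without WT replicate 2 and -0.23 without cKO replicate 1. Inside Hist1, the 26 windows of the third block (chr13:23535001-23765000) had 16 higher means (12 on RPM, 9 with the TMM scaling) and a mean difference of 0.17. Both windows of the second block (chr13:22035001-22045000) had lower means, by 1.43 at Hist1h2ah and 0.41 at Hist1h4i, the latter from -0.94 to -0.11 with a library left out. The first block, which includes the 4 windows with an input under 1, had 4 of 11 higher means and a mean difference of -0.18.

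Genes for the transcription and processing of histone messages were read at the window with their start. By limma 0 of 18 were called in either direction and 0 were higher and 3 lower at an unadjusted p under 0.05, against 6.82% and 8.12% of all windows, at a median WT mean of 5.47 and a median difference of -0.12, with 7 means higher in cKO (2 on RPM). Npat, the coactivator of the histone locus body, differed by 0.57 and Hinfp, the H4 promoter factor, by -0.86. Slbp, the stem-loop binding protein, differed by -0.81, and Zfp473, a zinc finger protein of the U7 processing complex, by -1.78 (adjusted p = 0.11). Cstf2t, a cleavage stimulation factor gene, had the most negative difference of the list, -2.35 (adjusted p = 0.16), with overlap at cKO replicate 4. All cKO libraries were below all WT libraries at 3 of the 18, Hinfp, Zfp473 and Ncbp2, against 9.95% of all windows, and above at 0 of 18, against 9.88%. Casp8ap2, needed for histone gene expression in S phase, differed by -0.01.

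Replacement histone genes outside the clusters had lower means in cKO at 12 of 14 start windows, also on RPM, with a median difference of -0.48, 0 called in either direction by limma, and 1 higher and 5 lower at an unadjusted p under 0.05, against 6.82% and 8.12% of all windows. H1foo, the oocyte linker histone, differed by -0.13 ± 0.35. H3f3b, a gene for H3.3, differed by -1.98 ± 0.71 (adjusted p = 0.22), H2afx, whose product marks DNA breaks when phosphorylated, by -1.49 ± 0.40 (adjusted p = 0.11), and Cenpa, the centromeric H3, by -1.53 ± 0.56 (adjusted p = 0.23). H2afy2, a macroH2A gene, differed by 1.28 ± 0.43 (adjusted p = 0.19). Its cKO libraries lay above all WT libraries, and those of 4 genes, H2afx, H2afz, H2afj and H3f3c, lay below, which makes 1 above and 4 below of 14, against 9.88% and 9.95% of all windows. Over all windows 43.7% of means were higher in cKO, and over windows with a protein-coding start 54.2%.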

How the data were processed

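H3K4me3 ULI-nChIP-seq and input libraries of *Setd1b* cKO and WT GV oocytes were grouped by the sample labels. Per the submitters' processing notes, reads were trimmed with Trim Galore 0.4.2 and mapped to GRCm38 with Bowtie2 2.2.9. The study's methods kept reads with a MAPQ of at least 20, left out windows of very high input, and left out 1 replicate of each genotype for poor enrichment, not analysed here. The deposited H3K4me3 values are a score, RPKM of 5 kb windows that the authors rescaled by enrichment normalization in SeqMonk on a linear scale. For the inputs the authors deposited a signal, the reads of each window scaled to library size. Every H3K4me3 and input value was a whole number of steps above the library's value at 0 reads (100% within 0.01 step), which gave whole reads.

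All windows were tested together with limma 3.58.1 in R 4.3.3 (no intensity trend, two-sided, Benjamini-Hochberg adjustment over 544879 windows, adjusted p under 0.05), without a block for replicate number. The fit was checked on simulated data with added changes larger than any difference at the histone windows. Power at the sizes reported here was not checked. edgeR 4.0.16 (quasi-likelihood test, TMM, at least 10 reads) was run on the whole reads as an alternative. An exact permutation test of 3 against 3 libraries cannot go below p = 0.1 and was not used. Nothing says that replicates came from separate litters, so p-values measure the spread between these pools. The ± values are SDs over libraries for group means and limma SEs for differences.

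Cluster and type were read from the gene symbol of the window. Windows named with all libraries were those called, the 5 highest and 5 lowest in WT, the 5 largest differences each way, the highest of each type, the Hist3 and Hist4 windows and germline variants. Hist1h3d, Hist1h2al, Hist2h3c2, Hist1h4f, Hist1h4i, Hist1h4n, Hist1h1d, Hist1h1b window 1 and the other Hist1h2be windows were added after their values were seen. The members and lists were chosen with earlier results of these data known. Gene starts came from GENCODE M21, and promoters from RefSeq. Means over clusters and types carry no test.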

Additional observations from a re-analysis of the deposited data

How the results depend on the processing

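The gain at Hist1h2be window 8 kept its direction in all 13 alternatives and its call in 5, with adjusted p from 1.2e-06 to 0.19. Among histone windows, the 1 gain and 0 losses became 0 gains on log2(value + 1) and after quantile normalization, 1 loss (Hist4h4) with a minimum mean of 1, and 0 to 2 gains and 0 to 4 losses with a library left out, the most without cKO replicate 1. The replicate block, on replicates 1 and 4 that both genotypes have, gave 3 gains and 3 losses, and the same 4 libraries without the block 0 gains and 0 losses (chosen after seeing the data). Whether the numbers pair the samples is undecided: deviations from the group mean correlated at 0.319 for number 1, the highest of all 9 pairs, and at 0.019 for number 4 over all windows. Over all windows, 3066 gains and 2473 losses became 0 and 0 on log2(value + 1), 1 and 0 after quantile normalization, 8540 and 10952 with an intensity trend, 5369 and 6145 with edgeR, 13678 and 19755 with the replicate block, 0 and 0 on its libraries without it, and 0 to 9330 gains and 0 to 8649 losses without a library. The cause of these shifts was not tested.

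Of 84 alternative cluster and type means, 83 moved by less than 1 SD. The exception was Hist3, from 0.27 to -0.23 with windows chosen by annotated start. With a library left out, the mean difference ran from 0.27 to 0.78 for H1 (lowest without WT replicate 2), from -0.04 (without cKO replicate 1) to 0.45 for H2A, from -0.46 to 0.01 for H2B, from -0.17 (without WT replicate 2) to 0.24 for H3 and from -0.53 to -0.05 for H4, the highest of these last 4 without cKO replicate 3. The input median of histone windows was 1.98, and 1.81 in WT input replicate 4 alone. Of 20 named windows, these changed sign in an alternative: Hist3h2ba (-0.076 to 0.48 without a WT library, the lowest without replicate 4, and -0.13 in edgeR), Hist1h2bq window 2 (0.23 in edgeR), Hist1h1t (-0.68 to 0.14 with a library left out, with 0.12 without cKO replicate 3 and 0.14 without WT replicate 4) and Hist1h1c window 1 (-0.14 on replicates 1 and 4 with or without the block, -0.054 in edgeR). The windows added later are not among these 20. Of them, Hist2h3c2 (to -0.13), Hist1h1d (to 0.03) and Hist1h4n (to 0.009), among others, also changed sign with a library left out. Under the block, Hist1h1b window 2, Hist1h4d, Hist4h4, Hist2h2bb and Hist1h2be window 5 also passed.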
